A study of Sus scrofa with 30 samples.

Results

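The miRNAs described here are miR-103, miR-107 and miR-378 in the plasma of irradiated Göttingen minipigs. They were chosen by number, as the rows of the deposited miRNA count table whose number right after ssc-miR- was exactly that of one of these miRNAs. The rule found 4 of 411 rows, namely ssc-miR-103, ssc-miR-107, ssc-miR-378 and ssc-miR-378b-3p. The last of these carries a letter after the same number and was kept because the rule reads only the number.

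Small RNA was sequenced from plasma of 3 male Göttingen minipigs, 4 months of age, which each received 2.2 Gy of total body gamma irradiation (TBI), a lethal dose. Blood was drawn from the same animals 7 days (C7) and 1 day (C1) before TBI, then 6 hours after it (0d) and on days 1, 3 and 7 and days 10, 14, 17 and 20 (1d to 20d). The time points formed 5 phases, which were pre-TBI (both draws before TBI), Early (the draws of the first week), Mid (10d and 14d), Late (17d only) and Late Regression (LR, 20d only). These are the phases of the study, which drew them from the same libraries. All 3 animals were irradiated, all were given dextrose on days 1 and 8, and no unirradiated animals were sampled alongside, so that time, repeated bleeding, illness and supportive care cannot be told apart from the dose. The source cells of a plasma miRNA were not sampled.

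miRNAs guide silencing complexes to messenger RNAs through their seed, the short stretch near the 5′ end. miR-103 and miR-107 are near-identical miRNAs that lie in introns of the pantothenate kinase genes, whose enzymes open the synthesis of coenzyme A. They are known for lowering insulin sensitivity in liver and fat, in part through caveolin, and for holding down Dicer, the enzyme that matures miRNAs. miR-378 lies in PPARGC1B, the gene of a coactivator of mitochondrial genes, and is known for roles in mitochondrial metabolism, fat storage and muscle. A miRNA in plasma may come from blood cells, liver, muscle or other tissue, carried in vesicles, protein complexes or lipoproteins.

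The seeds are printed because miR-103 and miR-107 belong to a wider seed group, and that group is followed below. Each run is the seed, bases 2 to 8, all in capitals, as the study's supplementary target table names it.
miR-103-3p: GCAGCAU
miR-16-5p: AGCAGCA
The run GCAGCA, 6 bases long, occurs in both seeds, shifted by a base. miR-16 and its relatives miR-15, miR-195, miR-424, miR-497 and miR-503 make up the rest of this group, called the miR-15 and miR-107 group here. The seeds of these relatives were not compared, so the run is shown for miR-103 and miR-16 only.

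The RefSeq gene table for the pig assembly Sscrofa11.1 held 6 loci for these miRNAs. MIR103-1 lay within PANK3, MIR103-2 within PANK2 and MIR107 within PANK1, the 3 being pantothenate kinase genes. MIR378-1 lay within PPARGC1B, MIR378-2 within BCAS3 and MIR378B within RGS3. No coordinates are given because the reads were aligned to another build. Mature miR-103 can thus come from 2 loci and mature miR-378 from 2 loci, and the counts do not separate them.

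Of 30 libraries, 6 held at most 17 counts in all. They were the libraries of minipig 3 from 3d onwards, none held a count of any of the 4 miRNAs, and they were left out. The 24 libraries kept held 24341 to 550316 counts, with a median of 240612. Depth moved with phase: totals ran from 24341 to 423325 in the 6 pre-TBI libraries, 172339 to 524084 in the 10 Early libraries, 35762 to 103083 in the 4 Mid libraries, 29159 and 63441 in the 2 Late libraries, and 401408 and 550316 in the 2 LR libraries. Mid, Late and LR rest on minipigs 1 and 2 alone. Levels below are CPM, the counts of a row relative to the scaled library total, after scaling of the libraries with trimmed mean of M-values (TMM) factors.

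miR-103 and miR-107 stood at moderate, similar levels at every phase. The count of ssc-miR-103 was 23 to 898 with a median of 345.5 in the 6 pre-TBI libraries and 102 to 697 with a median of 439.5 in the 10 Early libraries. It was 19 and 59 at 10d, 140 and 141 at 14d, 19 and 135 at 17d, and 285 and 1943 at 20d, each pair giving minipig 1 and then minipig 2. The lowest counts, 19 at 10d and 17d of minipig 1 and 23 at C7 of minipig 1, came from 3 shallow libraries, and the highest came from the deepest one.

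After scaling, most of that range closed. The level of ssc-miR-103 was 1097 to 1613 CPM before TBI, with a median of 1205 CPM, and 642 to 2027 CPM at Early, with a median of 1363 CPM. It was 452 and 1377 CPM at 10d, 1499 and 1239 CPM at 14d, 902 and 2120 CPM at 17d, and 852 and 2694 CPM at 20d. The Early and Mid ranges overlapped the pre-TBI range, and at Late and LR one library lay below that range and the other above it. The later phases were wider: on the log2 CPM scale the level was 10.34 ± 0.25 before TBI (mean ± SD, n = 6), 10.34 ± 0.50 at Early (n = 10), 10.03 ± 0.80 at Mid (n = 4), 10.44 ± 0.87 at Late (n = 2) and 10.57 ± 1.17 at LR (n = 2).

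The 2 animals with libraries kept up to day 20 parted at the end. In minipig 1 the log2 CPM of ssc-miR-103 at 17d differed from that animal's own pre-TBI mean by -0.32, and at 20d by -0.40. In minipig 2 the same differences were 0.67 and 1.01, and both libraries lay above both of its pre-TBI libraries. The means at Late and LR are thus averages of a lower and a higher animal.

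ssc-miR-107 gave almost the same picture. Its counts were 25 to 976 before TBI and 171 to 724 at Early, then 22 and 60 at 10d, 151 and 148 at 14d, 19 and 129 at 17d, and 362 and 1980 at 20d, again with minipig 1 first. The level was 1187 to 1755 CPM before TBI, 1076 to 2225 CPM at Early, 523 to 1617 CPM at Mid, 902 and 2026 CPM at Late, and 1083 and 2745 CPM at LR. Here too Early and Mid overlapped pre-TBI, and the Late and LR libraries lay on both sides of it. On the log2 CPM scale it was 10.50 ± 0.23 before TBI (mean ± SD, n = 6), 10.56 ± 0.36 at Early (n = 10), 10.13 ± 0.73 at Mid (n = 4), 10.41 ± 0.82 at Late (n = 2) and 10.76 ± 0.94 at LR (n = 2).

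In most libraries ssc-miR-378 was close to miR-103 and miR-107 in level, but it stood far higher in 3. Before TBI, minipig 1 held 6928 CPM at C7 and 1711 CPM at C1, minipig 2 held 1100 and 1155 CPM, and minipig 3 held 677 and 749 CPM. The Early libraries ran from 590 to 1679 CPM with a median of 1004 CPM. Minipig 1 then held 8983 CPM at 10d, 1766 CPM at 14d, 9498 CPM at 17d and 987 CPM at 20d. Minipig 2 held 863, 641, 2434 and 824 CPM at the same time points. The 2 Late libraries were each the highest after TBI in their own animal, although C7 of minipig 1 lay above the Late library of minipig 2.

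The 3 high libraries were all of minipig 1 and were the 3 shallowest of its libraries. ssc-miR-378 made up 0.579% of 24341 counts at C7 (exact 95% binomial interval 0.488 to 0.683%), 0.638% of 59291 counts at 10d (0.575 to 0.705%) and 0.686% of 29159 counts at 17d (0.594 to 0.788%), intervals that cover counting error only. ssc-miR-378 was the 22nd, 18th and 14th most abundant row there, against rank 61 at best in the other 21 libraries, which ran from 590 to 2434 CPM with a median of 987 CPM. The same 3 libraries were the 3 highest for 72 of the 411 rows (17.5%), ssc-miR-378b-3p among them, and not for ssc-miR-103 or ssc-miR-107. Whether shallow depth or something else in these libraries plays a part was not tested.

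**Figure D1:**
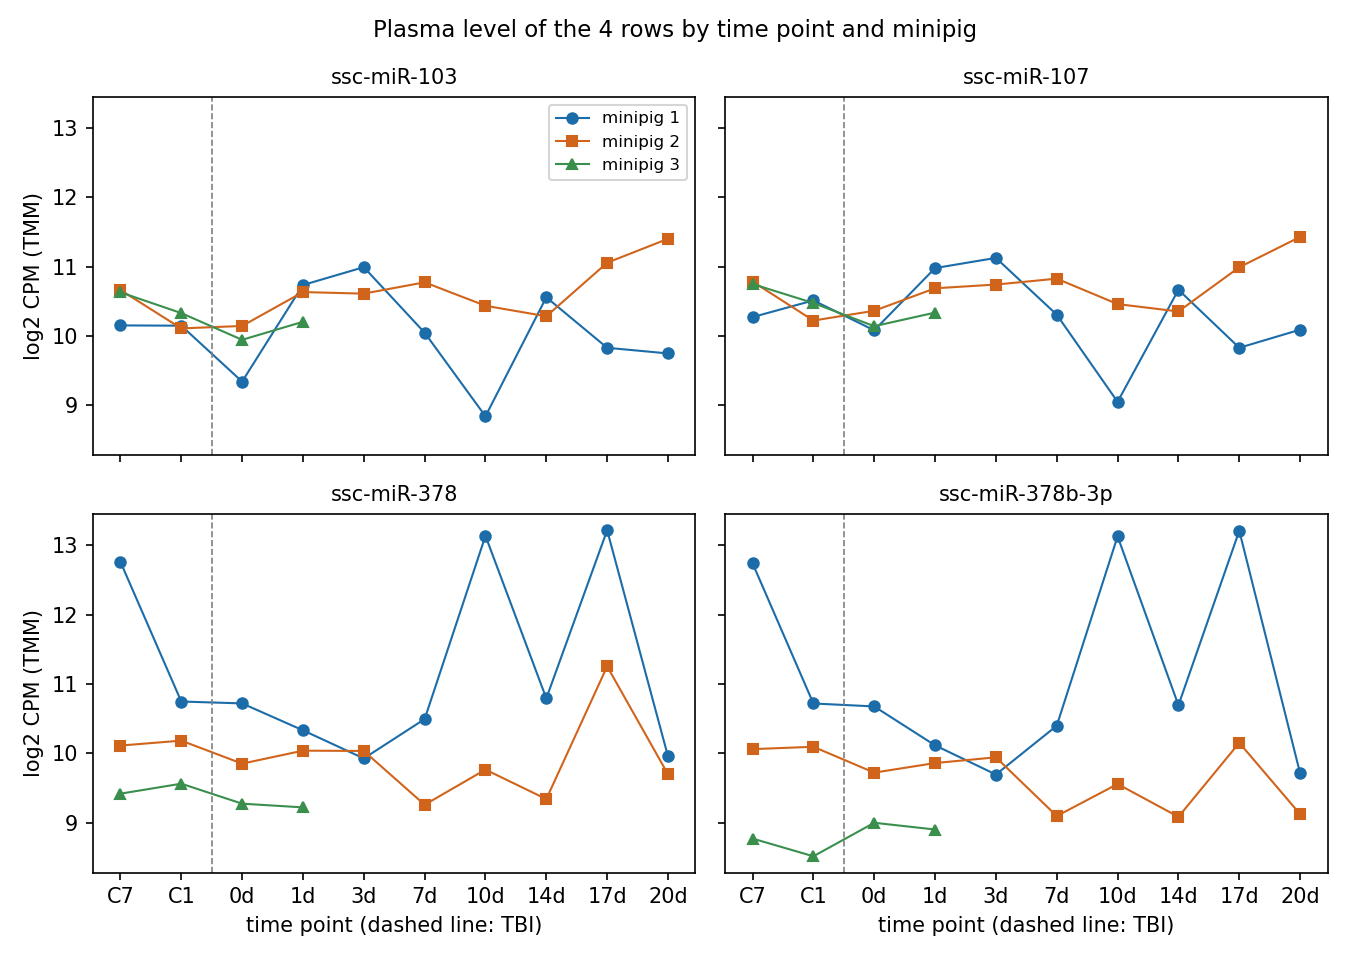
Level of each of the 4 miRNAs in log2 CPM (TMM-scaled, prior count 2) against time point, with one line and marker per minipig. ssc-miR-103 and ssc-miR-107 follow the same course, and ssc-miR-378 and ssc-miR-378b-3p share high points at C7, 10d and 17d of minipig 1, where ssc-miR-378 reached 6928, 8983 and 9498 CPM.

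On the log2 CPM scale ssc-miR-378 was 10.46 ± 1.22 before TBI (mean ± SD, n = 6), 9.92 ± 0.53 at Early (n = 10), 10.76 ± 1.70 at Mid (n = 4), 12.23 ± 1.39 at Late (n = 2) and 9.83 ± 0.18 at LR (n = 2). In order of mean the phases ran LR, Early, pre-TBI, Mid, Late, and all neighbours up to Mid overlapped in their libraries. Late and Mid overlapped as well, because 10d of minipig 1 lay between the 2 Late libraries. Late and LR, with n = 2 each, did not overlap, and how many other rows did the same was not counted.

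Within each animal the Early libraries of ssc-miR-378 were all below both pre-TBI libraries, in 3 of 3 minipigs. The margin was small in minipig 1, with a log2 CPM of 10.72 at 0d against 10.75 at C1. The difference of means in log2 CPM was -1.38 in minipig 1, -0.35 in minipig 2 and -0.24 in minipig 3. At Late the difference was 1.46 in minipig 1 and 1.11 in minipig 2, each above both pre-TBI libraries of that animal. At LR it was -1.80 and -0.45, each below both. At Mid it was 0.21 and -0.59. How many of all rows parted from pre-TBI in these ways was not counted, so nothing particular to miR-378 is read from it.

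ssc-miR-378b-3p had counts of 139 to 314 before TBI and 116 to 407 at Early, then 376 and 32 at 10d, 154 and 61 at 14d, 199 and 72 at 17d, and 278 and 397 at 20d. Its level was 359 to 6830 CPM before TBI and 471 to 1629 CPM at Early. At Late it was 9451 CPM in minipig 1 but 1131 CPM in minipig 2, where ssc-miR-378 had 2434 CPM. The within-animal difference at Late was therefore 1.48 in minipig 1 and 0.07 in minipig 2. At Early it was -1.51 and -0.42 in minipigs 1 and 2 but 0.31 in minipig 3, where both Early libraries lay above both pre-TBI libraries, opposite to ssc-miR-378.

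These 4 rows cannot be taken as 4 separate measurements, although whether they share reads was not tested. The mature forms within each pair differ by very few bases, and how reads that fit both were counted is not given in the sources used here. The count of ssc-miR-103 was 59.6 to 104.7% of that of ssc-miR-107, with a median of 91.6%. It was below ssc-miR-107 in 22 of 24 libraries, equal in 1 (19 and 19 counts at 17d of minipig 1) and above in 1 (135 and 129 counts at 17d of minipig 2). The lowest share was at 0d of minipig 1, with 102 against 171 counts. The Spearman correlation of their log2 CPM over the 24 libraries was 0.967, and the libraries share animals.

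The count of ssc-miR-378b-3p was 46.5 to 99.5% of that of ssc-miR-378, with a median of 88.8%, and was below it in 24 of 24 libraries. The share was 84.2 to 99.5% in minipig 1, 46.5 to 96.5% in minipig 2 and 47.9 to 82.4% in minipig 3, so that the range of minipig 2 overlapped both others. In the 3 libraries with the highest ssc-miR-378 the rows differed by 2, 2 and 1 counts. At 17d of minipig 2 they differed by 83 counts (155 against 72), and at 20d of minipig 2 by 197 counts (594 against 397). The counts of the 2 rows cannot be read as independent evidence for the same course.

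**Figure D2:**
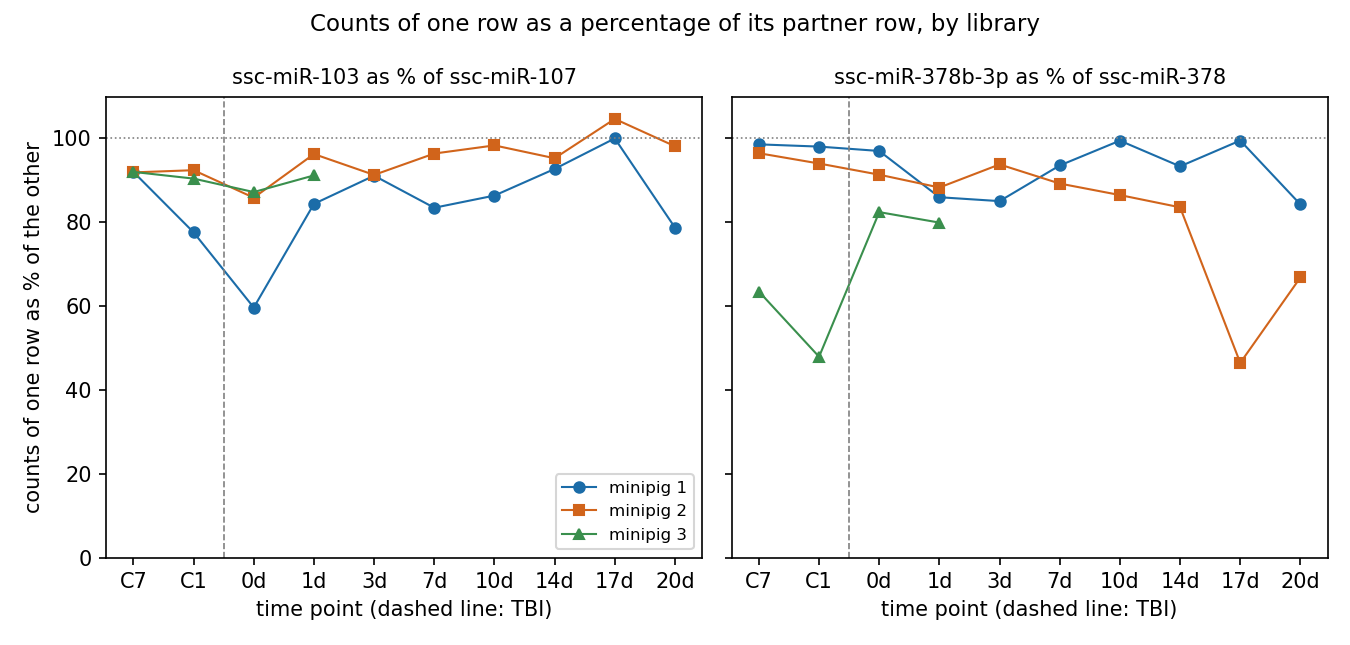
Count of ssc-miR-103 as a percentage of ssc-miR-107, and of ssc-miR-378b-3p as a percentage of ssc-miR-378, in each of the 24 libraries by time point and minipig. The first pair has a median of 91.6% and the second a median of 88.8%, with 46.5% the lowest, at 17d of minipig 2.

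Counts of miR-103 and miR-107 went with the depth of the library much as other rows did, and those of miR-378 did so less. The Spearman correlation of count with library total over the 24 libraries was 0.872 for ssc-miR-103 and 0.897 for ssc-miR-107, beside a median of 0.898 over all 411 rows. It was 0.698 for ssc-miR-378 and 0.515 for ssc-miR-378b-3p, and 49 and 24 of the 411 rows had a lower value. Totals spanned 22.6-fold. The counts of ssc-miR-103 and ssc-miR-107 spanned 102-fold and 104-fold, and those of ssc-miR-378 and ssc-miR-378b-3p only 16.1-fold and 12.7-fold.

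**Figure D3:**
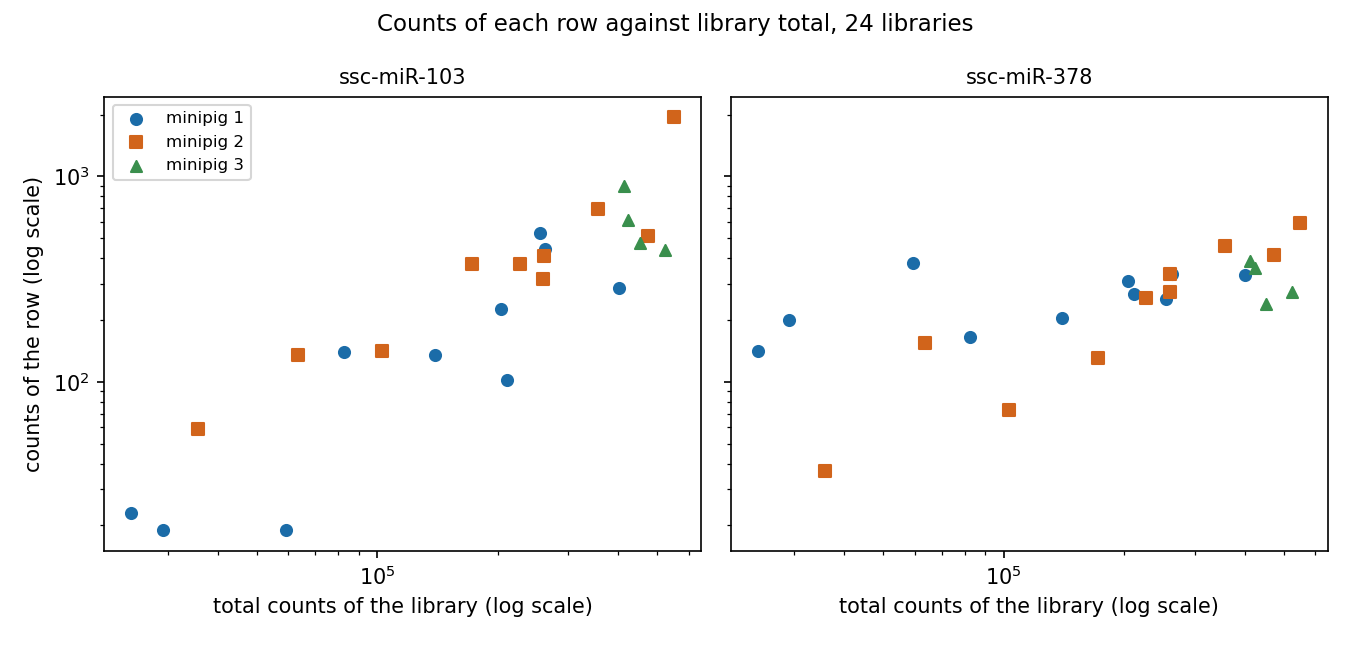
Count of ssc-miR-103 and of ssc-miR-378 against the total count of the library, both on log axes, for the 24 libraries by minipig. ssc-miR-103 climbs with the total (Spearman 0.872), while ssc-miR-378 (0.698) holds counts in its 3 high libraries that lie within the range of libraries many times deeper.

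The question of the phase comparison was whether plasma levels after TBI differed from the pre-TBI baseline. edgeR's quasi-likelihood test was fitted over all 411 rows, with Benjamini-Hochberg adjustment over all of them and a threshold of 0.05 on the adjusted p. The minipigs are the replicates, and repeated draws from an animal are treated as separate samples in this fit. In the comparisons with pre-TBI, 0 of the 4 miRNAs passed at Early, Mid, Late or LR, where 0, 0, 4.38 and 0% of all rows passed. At an unadjusted p under 0.05 the count was also 0 of 4 in each, where 18.7, 5.35, 22.6 and 5.6% of all rows passed. DESeq2 called 0 of 4 in each as well, where it called 8.03, 0, 6.57 and 0% of all rows.

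For ssc-miR-103 the log2 fold change against pre-TBI was 0.05 at Early (SE 0.29) and -0.19 at Mid (SE 0.36), then 0.23 at Late (SE 0.46) and 0.44 at LR (SE 0.44). The adjusted p of edgeR's quasi-likelihood test was 0.937, 0.978, 0.803 and 0.697. For ssc-miR-107 the log2 fold changes were 0.08 (SE 0.25), -0.27 (SE 0.32), 0.02 (SE 0.40) and 0.39 (SE 0.39), with adjusted p of 0.879, 0.970, 0.983 and 0.697. Each estimate was about as large as its error or smaller. The signs at Early, Late and LR turned with other settings or with 1 animal left out, so no direction is read from them.

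For ssc-miR-378 the estimates were larger and so were their errors. The log2 fold change was -0.96 at Early (SE 0.53, adjusted p = 0.311 by edgeR's quasi-likelihood test) and 0.62 at Mid (SE 0.66, adjusted p = 0.970). It was 1.58 at Late (SE 0.79, adjusted p = 0.227) and -1.13 at LR (SE 0.90, adjusted p = 0.607). For ssc-miR-378b-3p it was -1.00 (SE 0.60), 0.69 (SE 0.76), 1.52 (SE 0.91) and -1.41 (SE 1.05), with adjusted p of 0.355, 0.970, 0.306 and 0.593. The sign at Mid was set by minipig 1: without that animal the log2 fold change of ssc-miR-378 there was -0.34. The size at Early and LR rested on it too: without minipig 1 the log2 fold change of ssc-miR-378 was -0.25 at Early and -0.13 at LR, and without its C7 library alone -0.15 and -0.38.

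The Late comparison of ssc-miR-378 shifted with 1 baseline library. Without C7 of minipig 1, a repeat chosen after the data were seen, the log2 fold change at Late was 2.23 with an adjusted p of 0.0342 by edgeR's quasi-likelihood test, and 8.76% of all rows passed. Only 1 of the 4 miRNAs passed in that fit. With minipig as a block it was 1.27, with an adjusted p of 0.234.

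Between the end phases miR-378 was lower at 20d than at 17d, though not past the adjusted threshold. ssc-miR-378 held 9498 and 2434 CPM at 17d and 987 and 824 CPM at 20d, without overlap, and both animals went the same way. The share of all rows that did so was not counted, so the separation is a description only. The log2 fold change of LR against Late was -2.71 (SE 1.09, adjusted p = 0.109 by edgeR's quasi-likelihood test), and for ssc-miR-378b-3p it was -2.92 (SE 1.26, adjusted p = 0.121). At the adjusted threshold 0 of 4 passed, where 0.73% of all rows did. At an unadjusted p under 0.05, 2 of 4 passed, both lower, where 32.1% of all rows passed and 20.4% were lower. DESeq2 gave 0 of 4 adjusted (15.6% of all rows) and the same count of 2 unadjusted (35.3% of all rows). The log2 fold changes of ssc-miR-103 and ssc-miR-107 in the same comparison were 0.21 (SE 0.56) and 0.37 (SE 0.49), neither past any threshold. Without minipig 1 the estimate for ssc-miR-378 was -1.502 and that for ssc-miR-378b-3p -0.98 on the log2 scale. Without minipig 2 the values were -3.14 and -3.38. Each of these fits had 1 Late and 1 LR library, assumed to vary like the other groups, so no calls are counted from them. The Late libraries held 29159 and 63441 counts and the LR libraries 401408 and 550316, and the part of that depth gap in the result was not tested.

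**Figure D4:**
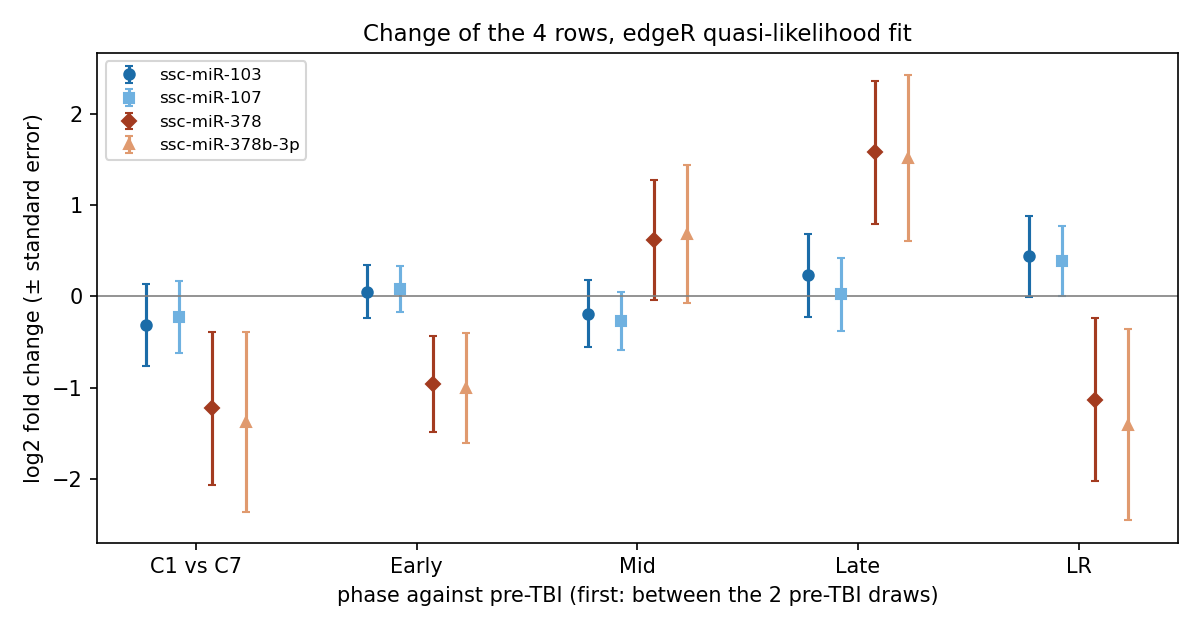
log2 fold change of each of the 4 miRNAs in each phase against pre-TBI, with points for the estimate of edgeR's quasi-likelihood fit and bars for its standard error. The first set of points is C1 against C7, both before TBI, from a separate fit. In the phases against pre-TBI, ssc-miR-103 and ssc-miR-107 run from -0.27 (ssc-miR-107 at Mid) to 0.44 (ssc-miR-103 at LR). Among the phases ssc-miR-378 runs from -1.13 at LR to 1.58 at Late, and none of the points passed the adjusted threshold.

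A single test over all time points asked whether a miRNA differed anywhere among pre-TBI and the 8 time points after TBI. The F test of edgeR's quasi-likelihood fit gave an adjusted p of 0.652 for ssc-miR-103, 0.652 for ssc-miR-107, 0.174 for ssc-miR-378 and 0.256 for ssc-miR-378b-3p. Thus 0 of 4 passed with adjustment (6.81% of all rows) and 1 of 4, ssc-miR-378, without it (25.8% of all rows). DESeq2's likelihood ratio test called 1 of 4, the same row, with an adjusted p of 0.0207, and called 32.1% of all rows. Without C7 of minipig 1 the adjusted p for ssc-miR-378 in edgeR's quasi-likelihood test was 0.0367, where 11.2% of all rows passed.

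The 2 draws before TBI were compared as a background without irradiation. The log2 fold change of C1 against C7 was -0.31 for ssc-miR-103 (SE 0.45), -0.22 for ssc-miR-107 (SE 0.40), -1.23 for ssc-miR-378 (SE 0.84) and -1.37 for ssc-miR-378b-3p (SE 0.99), each with an adjusted p of 0.997 by edgeR's quasi-likelihood test. Of the 4, 0 passed with or without adjustment, where 0% and 0.73% of all rows passed. The estimate for ssc-miR-378 came from minipig 1, with 6928 CPM at C7 and 1711 CPM at C1, while minipigs 2 and 3 held slightly more at C1 than at C7.

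Ratios within a library do not depend on the scaling between libraries. The log2 ratio of ssc-miR-103 to ssc-miR-107 was -0.16 ± 0.10 before TBI (mean ± SD, n = 6). From there it moved by -0.05 in Early, 0.06 in Mid, 0.20 in Late and -0.02 in LR libraries. The p of a two-sided exact permutation test within minipigs was 0.614, 0.306, 0.111 and 1, with an adjusted p of 0.444 or more over the 8 ratio tests. The log2 ratio of ssc-miR-378 to the sum of ssc-miR-103 and ssc-miR-107 was -0.96 ± 1.37 before TBI (n = 6), and moved by -0.58, 0.64, 1.77 and -0.89 in the same order, with exact permutation p of 0.211, 0.611, 0.111 and 0.333. At Late and LR the 9 arrangements allow no p below 0.111, so these could not pass. At Mid the 36 arrangements allow no p below 0.0278. With Late and LR held at 0.111 or more, Mid could not pass after adjustment over the 8 tests either. The spread of the second ratio at Late was wide (SD 2.23, n = 2).

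The other rows with the numbers of the miR-15 and miR-107 group, 8 in all, also held none past the adjusted threshold of edgeR's quasi-likelihood test in any phase. They were taken by number, so they include ssc-miR-424-3p, the opposite arm of miR-424, which does not carry the group's seed. Without that arm the median log2 fold change of the 7 remaining rows was -0.20 in the Early phase, -0.63 in the Mid phase, 0.35 in the Late phase and -0.52 in LR, beside medians over all 411 rows of 0.02, 0.05, 0.08 and -0.01. With it the median was -0.07, -0.48, 0.08 and -0.35. At an unadjusted p under 0.05, 1, 2, 2 and 0 of the 7 rows passed, where 18.7, 5.35, 22.6 and 5.6% of all rows passed. ssc-miR-424-3p itself passed without adjustment at Early (0.68), Late (-1.30) and LR (1.24).

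A list of 16 rows of other miRNAs linked to lipid and glucose metabolism, among them miR-122 of hepatocytes and the miR-27 and miR-29 families, had its calls at Late. There 2 of 16 passed, both higher, where 4.38% of all rows passed and 3.89% were higher. They were ssc-miR-130b, linked to fat cell differentiation, with a log2 fold change of 1.31 (SE 0.36, adjusted p = 0.0403 by edgeR's quasi-likelihood test), and ssc-miR-34a, a p53 target linked to liver lipid handling, with 1.68 (SE 0.49, adjusted p = 0.0482). The calls were lost in 11 and 10 of 16 other settings, the fit with minipig as a block among them for ssc-miR-130b (adjusted p = 0.0861). The list's median was 0.57 at Late, beside 0.08 over all rows, and -0.01, -0.24 and 0.11 at Early, Mid and LR, where 0 of 16 passed.

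Markers of possible source cells were followed as shares of all counts. The 3 erythroid rows (miR-451, miR-144 and miR-486) took 1.02 to 9.02% before TBI, 0.827 to 7.06% at Early, 0.909 to 2.93% at Mid, 0.604 to 1.02% at Late and 1.31 to 1.67% at LR. The 3 platelet rows (both arms of miR-126, and miR-191) took 0.883 to 2.11% before TBI, 1.06 to 7.56% at Early, 0.477 to 1.39% at Mid, 0.151 to 0.586% at Late and 0.765 to 0.946% at LR. In both lists the lowest share of any library was at Late. Single platelet rows differed there, with a log2 fold change against pre-TBI of -2.11 for ssc-miR-191, -1.05 for ssc-miR-126-5p and -0.12 for ssc-miR-126-3p. At LR the values in the same order were -1.28, 1.75 and 0.27. The 8 muscle rows took 0.130 to 0.559% before TBI and 0.259 to 0.305% at Late, and the 5 liver rows 0.419 to 0.678% before TBI, 0.309 to 0.346% at Late and 0.927 to 1.23% at LR. Single liver rows went both ways at LR, with a log2 fold change against pre-TBI of -1.39 for ssc-miR-122 and 1.48 for ssc-miR-192. For ssc-miR-194a, ssc-miR-194b-3p and ssc-miR-194b-5p it was 0.20, -0.10 and 0.30. None of the 4 marker lists held a row past the adjusted threshold or a row at 0, and their part in the levels of miR-378 was not tested. In plasma, fewer cells of a type and less RNA released per cell cannot be told apart.

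The rows most like each miRNA over the 24 libraries differed between the pairs. By Spearman correlation of log2 CPM, ssc-miR-103 was followed most closely, after ssc-miR-107, by ssc-miR-199a-5p (0.657), ssc-miR-199b-3p (0.643), ssc-miR-30a-5p (0.631) and ssc-let-7f (0.603). For ssc-miR-107 they were, after ssc-miR-103, ssc-miR-199a-5p (0.683), ssc-miR-181b (0.612), ssc-miR-9860-5p (0.603) and ssc-miR-199b-3p (0.588). For ssc-miR-378 they were ssc-miR-378b-3p (0.963), ssc-miR-340 (0.915), ssc-miR-708-3p (0.902), ssc-miR-135 (0.893) and ssc-miR-376b (0.893). All 5 of the last group had their 3 highest levels in the same 3 shallow libraries of minipig 1, with 26 to 376 counts each there. The correlation of ssc-miR-378 with ssc-miR-103 was -0.277 and with ssc-miR-107 -0.256. The libraries share animals, depth and scaling, and these values are descriptions.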

How the data were processed

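Small RNA was sequenced from 5 µL of plasma per library at 10 time points in 3 minipigs. Per the labels and the study's methods, the authors trimmed adapters with cutadapt, aligned reads to the pig genome with Bowtie2 (version 2.2.3.0 in the submitters' processing notes) and deposited whole-number counts per mature miRNA, not normalized. The treatment of reads that fit several miRNAs is not given in the sources used here.

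Groups came from the labels. Libraries under 1000 counts (6 of 30) were left out, rows needed CPM above 0.5 in at least 3 libraries (all 411 passed, the 4 miRNAs among them), and TMM scaling and quasi-likelihood tests were run in edgeR 4.0.16 (R 4.3.3). The 5 phases shared a fit. The F test over all time points had 8 degrees of freedom. Log2 CPM used a prior count of 2 and fold changes one of 0.125. Standard errors are the log2 fold change over the root of F. Ratios, with 0.5 added to each count, were tested by moving time labels within each minipig (Python 3.11.15, scipy 1.17.1). Scripts were tested on simulated data. DESeq2 1.42.0 was an alternative, with other scaling, filters, depth, baselines, a minipig block and each animal left out.

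Same numbers mark the same animal, so numbers pair the libraries: deviations correlated at 0.169 on average within animals (78 pairs of libraries) and -0.102 between them (130 pairs). P-values over repeated draws treat them as separate samples. At these depths 1 count is worth most in the shallowest library, of 24341 counts. The named rows were the 4 that met the rule, the 5 rows most like each, and rows of 2 lists past the adjusted threshold. Outside these, ssc-miR-424-3p and single rows of the marker lists were also named. None of the latter passed the adjusted threshold, and their values are descriptions only. The miRNAs and lists were chosen with earlier results of these data known. Seeds were copied from the study's supplementary target table and loci from RefSeq.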

Additional observations from a re-analysis of the deposited data

Results flagged for a closer look

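Of 18 groups of 4 to 10 libraries looked at for a library far from the rest, 3 held one, and chance alone flags about 1 group in 20. The log2 CPM of ssc-miR-103 at Mid was 8.84 at 10d of minipig 1, below the other 3 libraries by 0.840 of the whole range (19 counts of 59291). The log2 ratio of ssc-miR-103 to ssc-miR-107 before TBI was lowest at C1 of minipig 1, at -0.365, a gap of 0.874 of the range of 6 libraries. At Early the same ratio was lowest at 0d of minipig 1, at -0.743, a gap of 0.699 of the range of 10 libraries. All 3 are libraries of minipig 1.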

How the results depend on the processing

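Of the alternatives tried for all values reported, 400 kept the direction and the side of the threshold, 33 turned the direction, 3 brought a call and 21 lost one, the 21 all being those of ssc-miR-130b and ssc-miR-34a. No turned value passed the adjusted threshold, and the cause of each turn was not tested. For ssc-miR-103 the log2 fold change at Early became -0.17 with C7 only as baseline, -0.0051 with library size only and -0.018 without ssc-miR-4332, and at Late -0.025 with C7 only, -0.10 with all libraries of at least 1 count and -0.0019 with library size only. For ssc-miR-107 at Early it became -0.11 with C7 only and -0.21 in thinned counts, and at Late -0.19 with C7 only, -0.013 with RLE size factors, -0.31 with libraries of at least 1 count, -0.21 with library size only, -0.041 with only the groups compared and -0.061 without ssc-miR-4332. Library size only moved the median of all rows at Late by -0.28. The log2 ratio of ssc-miR-103 to ssc-miR-107 at Mid became -0.063 in thinned counts. Only the ssc-miR-378 counts in excess of ssc-miR-378b-3p, an alternative added after seeing the data, gave -0.67 at Mid and 0.43 at LR.

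With minipig as a block, ssc-miR-107 at Late became -0.086, and the adjusted p of ssc-miR-378 over all time points was 0.0677. Among the 4 miRNAs the block changed no call at the adjusted threshold. Without adjustment it added ssc-miR-378 at Early (-0.76) and at Late (1.27), 1 of 4 in each, where 22.4 and 19.2% of all rows passed in that fit.

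Leaving out an animal, or C7 of minipig 1 (chosen after seeing the data), gave log2 fold changes of ssc-miR-103 from -0.10 to 0.20 at Early, -0.81 to 0.56 at Late and -0.77 to 0.97 at LR, and of ssc-miR-107 from -0.11 to 0.21, -0.99 to 0.37 and -0.60 to 0.87. ssc-miR-378 ran from -1.28 to -0.15 at Early, -0.34 to 1.49 at Mid, 1.00 to 2.23 at Late and -1.59 to -0.13 at LR, and ssc-miR-378b-3p from -1.38 to -0.070 at Early, -0.24 to 1.68 at Mid, 0.60 to 2.25 at Late and -1.97 to -0.38 at LR. The ratio of ssc-miR-103 to ssc-miR-107 moved from -0.16 to 0.10 at LR, and that of ssc-miR-378 to both from -0.15 to 1.98 at Mid. The adjusted p of ssc-miR-378 over all time points ran from 0.0367 (without C7 of minipig 1) to 0.452, and was 0.0207 in DESeq2. LR against Late of ssc-miR-378 ran from -3.14 to -1.502, and of ssc-miR-378b-3p from -3.38 to -0.98. Late and LR rest on 2 libraries each, and 19 counts in the shallowest limit what miR-103 and miR-107 can show there.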
